A study of Mus musculus with 6 samples.

Results

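The junction genes of the intercalated disc described here are Dsp, Jup, Pkp2, Dsg2 and Dsc2 of the desmosome, Cdh2, Ctnna3 and Vcl of the adherens junction, and Gja1 and Tjp1 of the gap junction. They were chosen by gene name, 10 of the 54929 rows of the count table, and all 10 were among the 14807 genes that had enough reads to be tested. mRNA was sequenced from left ventricles of wild-type (WT) C57BL/6 mice with transverse aortic constriction (TAC), an operation that narrows the aorta and puts the left ventricle under pressure overload. In the TAC + anti-PD-1 group (n = 3 libraries) the mice received an antibody that blocks the T cell checkpoint receptor PD-1, and in the TAC + anti-IgG group (n = 3) a control antibody. Both antibodies were given intraperitoneally at 10 mg/kg with an interval of 3 days, beginning 2 weeks into the constriction, and the time given for every sample is 5 weeks. Both groups had the operation, so the comparison concerns the antibody in an already overloaded ventricle; no age was given in the labels. Whether each library is a different animal is not given in the labels, and p-values then measure the spread between these samples, which may be technical.

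The intercalated disc is the end-to-end contact between cardiomyocytes. Desmosomes anchor the desmin filaments of neighbouring cells to each other through the cadherins desmoglein and desmocollin, the armadillo proteins plakoglobin and plakophilin, and desmoplakin. Adherens junctions couple the actin filaments of the sarcomeres through N-cadherin, catenins and vinculin, and gap junctions of connexin 43 carry the electrical impulse. In humans, mutations in the desmosomal genes are a known cause of arrhythmogenic cardiomyopathy.

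The 250 bases before the start site of 5 members are shown because the first 3 of these genes rose under anti-PD-1 and the other two did not pass the test (values below). Sequences are from RefSeq, build GRCm38.p6, which has the mm10 coordinates of the count table; 6 of the 10 members matched the RefSeq promoter table by symbol. Capitals mark matches, on either strand, to any of 6 motifs. They include the CArG box bound by serum response factor, which is given here by name. The core of MEF2 sites was searched as CTA and TAG with any 4 bases between them. The core of TEAD factor sites was searched as GGAATG. For GATA factors the letters were AGATAA. The GC box was searched as GGGCGG. The TATA box was searched as TATAAA. The windows are chr13:38151044-38151293 on the plus strand for Dsp, chr14:20929148-20929397 on the plus strand for Vcl, chr10:63429848-63430097 on the plus strand for Ctnna3, chr11:100397791-100398040 on the minus strand for Jup and chr10:56377050-56377299 on the plus strand for Gja1. Each is printed 5′ to 3′.
Dsp: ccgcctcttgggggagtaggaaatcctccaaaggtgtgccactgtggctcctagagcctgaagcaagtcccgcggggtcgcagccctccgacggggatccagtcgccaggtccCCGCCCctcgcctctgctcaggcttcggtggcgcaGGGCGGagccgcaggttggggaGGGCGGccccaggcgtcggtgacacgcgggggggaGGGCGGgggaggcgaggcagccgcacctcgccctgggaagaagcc
Vcl: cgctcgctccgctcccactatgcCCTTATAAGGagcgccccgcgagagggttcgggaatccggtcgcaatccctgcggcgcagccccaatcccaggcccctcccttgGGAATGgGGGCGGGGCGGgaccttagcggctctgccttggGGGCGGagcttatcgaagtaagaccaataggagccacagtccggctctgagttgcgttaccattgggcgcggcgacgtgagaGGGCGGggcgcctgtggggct
Ctnna3: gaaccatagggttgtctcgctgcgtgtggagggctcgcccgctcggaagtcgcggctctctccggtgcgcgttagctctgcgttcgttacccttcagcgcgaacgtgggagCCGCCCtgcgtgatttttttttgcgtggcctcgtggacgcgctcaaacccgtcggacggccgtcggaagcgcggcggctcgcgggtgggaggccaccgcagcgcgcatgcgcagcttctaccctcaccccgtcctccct
Jup: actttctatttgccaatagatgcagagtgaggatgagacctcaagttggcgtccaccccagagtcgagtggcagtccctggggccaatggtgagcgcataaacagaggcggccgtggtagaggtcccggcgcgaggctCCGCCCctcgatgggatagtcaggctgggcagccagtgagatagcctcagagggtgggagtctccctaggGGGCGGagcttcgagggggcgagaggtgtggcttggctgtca
Gja1: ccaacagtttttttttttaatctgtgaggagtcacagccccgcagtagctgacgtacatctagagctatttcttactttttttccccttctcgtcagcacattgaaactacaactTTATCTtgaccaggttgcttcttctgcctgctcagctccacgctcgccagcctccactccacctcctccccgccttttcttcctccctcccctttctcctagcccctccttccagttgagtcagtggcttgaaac
The Vcl window held a CArG box, CCTTATAAGG, from -227 to -218 relative to the start site, and a GGAATG from -143 to -138. Of all 32851 promoter windows of this length, 1.47% held a CArG box and 12.6% a GGAATG. GC boxes, present in 32.7% of the windows, numbered 4 in Dsp, 4 in Vcl, 2 in Jup and 1 in Ctnna3, and 2 of those in Vcl share a base. The Gja1 window had no GC box and 1 AGATAA on its minus strand, which 9.99% of windows hold. None of the 5 windows held the MEF2 core (3.20% of all windows) or TATAAA (12.4%). These matches are letters in a window and were not tested as binding sites.

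Among the 5 desmosomal genes, the transcript of desmoplakin rose under anti-PD-1, and those of its armadillo partners and of the desmosomal cadherins did not pass the test. Dsp (chromosome 13, 38151294 to 38198577 in mm10, plus strand) encodes desmoplakin, the plakin that ties the junction to desmin filaments. It had 1137, 1419 and 1043 CPM (a gene's share of the counted reads on the usual CPM scale, with libraries scaled by TMM) in anti-PD-1 libraries 1 to 3, against 564, 422 and 486 CPM in anti-IgG libraries 1 to 3. The lowest anti-PD-1 library was well above the highest anti-IgG library, so the groups did not overlap. Its mean was 1199.7 ± 195 CPM under anti-PD-1, against 491 ± 71.1 CPM under anti-IgG (SD, n = 3 each), a 2.44-fold rise (log2 fold change 1.29 with an SE of 0.23, edgeR adjusted p = 0.00694).

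Jup encodes plakoglobin, which binds the tails of the desmosomal cadherins and also occurs in adherens junctions. It had 178, 262 and 269 CPM in the anti-PD-1 libraries, against 195, 224 and 265 CPM in the anti-IgG libraries, and the groups overlapped over nearly their whole range. Its log2 fold change was 0.05 (95% interval -0.43 to 0.53, edgeR adjusted p = 0.883). Pkp2 encodes plakophilin 2, the plakophilin of the heart, which links plakoglobin and desmoplakin. It stood at 169.5, 232 and 194 CPM under anti-PD-1, against 198, 239 and 194 CPM under anti-IgG, a log2 fold change of -0.09 (95% interval -0.51 to 0.34, edgeR adjusted p = 0.786). The intervals of Jup and Pkp2 leave out a change as large as that of Dsp but not smaller ones in either direction, and their signs near 0 turned with scaling or with the libraries used.

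The desmosomal cadherins had fewer reads than Jup or Pkp2. Dsg2 encodes desmoglein 2 (chromosome 18, 20558074 to 20604521). It had 49.9, 93.5 and 40.6 CPM in the anti-PD-1 libraries, against 48.1, 29.1 and 29.6 CPM in the anti-IgG libraries. Anti-PD-1 library 2 was far above every other library, and anti-IgG library 1 lay between the remaining anti-PD-1 libraries. The log2 fold change was 0.78 (95% interval 0.07 to 1.5), which did not pass after adjustment (edgeR adjusted p = 0.107). Without anti-IgG library 1 it passed (1.06, edgeR adjusted p = 0.0436), and without anti-PD-1 library 2 it was 0.36 (edgeR adjusted p = 0.335). Dsc2, which encodes desmocollin 2, had 34.1, 44.3 and 32.4 CPM under anti-PD-1, against 40.8, 31.0 and 19.5 CPM under anti-IgG. Its groups overlapped and its log2 fold change was 0.28 (95% interval -0.28 to 0.84, edgeR adjusted p = 0.456).

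All 3 adherens junction members rose under anti-PD-1, and in each the 3 anti-PD-1 libraries lay above the 3 anti-IgG libraries. Of all tested genes 10.3% rose and 41.0% had no overlap between groups, and of genes in the members' length range 17.6% and 42.2%. The call for Cdh2 did not hold once length was corrected for (values below). Vcl (chromosome 14, 20929398 to 21033676, plus strand) encodes vinculin, which is recruited to alpha-catenin and to talin where actin pulls on the junction. It had 88.0, 78.3 and 81.1 CPM in the anti-PD-1 libraries, against 31.9, 17.6 and 34.8 CPM in the anti-IgG libraries. The anti-PD-1 libraries were close to each other, with a coefficient of variation of 6.05%, and the anti-IgG libraries were spread, at 32.7%. Vcl rose 2.93-fold (log2 fold change 1.55 with an SE of 0.24, edgeR adjusted p = 0.00508). The exons of Vcl share 2090 of their 8191 bp with Ap3m1 on the opposite strand, and whether counting used strand is not stated in the sources used here; for Ap3m1 itself the log2 fold change was 0.33, with an SE of 0.17 and an edgeR adjusted p of 0.178.

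Ctnna3 (chromosome 10, 63430098 to 65003667, plus strand) encodes alpha-T-catenin, an alpha-catenin of heart and testis that also binds plakophilin 2. It had 23.2, 33.7 and 20.7 CPM under anti-PD-1, against 9.58, 10.2 and 10.9 CPM under anti-IgG. The anti-IgG libraries were nearly level and all anti-PD-1 libraries stood clear of them. Its rise was 2.52-fold (log2 fold change 1.33 with an SE of 0.22, edgeR adjusted p = 0.00627). Cdh2 encodes N-cadherin, the classical cadherin of cardiomyocytes (chromosome 18, 16588877 to 16809246, minus strand). Its values were 206, 293 and 204 CPM in the anti-PD-1 libraries, against 157, 128 and 137 CPM in the anti-IgG libraries. The gap between the groups was smaller than for Vcl or Ctnna3, and Cdh2 rose 1.66-fold (log2 fold change 0.74 with an SE of 0.21, edgeR adjusted p = 0.0303). This call ended without anti-PD-1 library 1 or 2 or anti-IgG library 2 or 3 (log2 fold change 0.56 to 0.83, edgeR adjusted p 0.0567, 0.0790, 0.121 and 0.0795 in that order).

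Neither gap junction member passed. Gja1 encodes connexin 43, the main connexin of the working ventricle (chromosome 10, 56377330 to 56402513). It had 377, 286 and 359 CPM in the anti-PD-1 libraries, against 441, 349 and 334 CPM in the anti-IgG libraries. Anti-PD-1 library 2, high for most other members, was the lowest of all for Gja1, and the groups overlapped (log2 fold change -0.14, 95% interval -0.59 to 0.32, edgeR adjusted p = 0.669). Tjp1 encodes ZO-1, the scaffold that binds the tail of connexin 43 at the edge of gap junctions and is also found in endothelial junctions. It had 123, 175 and 140.0 CPM under anti-PD-1, against 148, 95.7 and 82.0 CPM under anti-IgG. Anti-IgG library 1 lay among the anti-PD-1 libraries, and the log2 fold change was 0.43 (95% interval -0.10 to 0.96, edgeR adjusted p = 0.220). Without that library Tjp1 passed, at 0.72 (edgeR adjusted p = 0.0355).

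**Figure D1:**
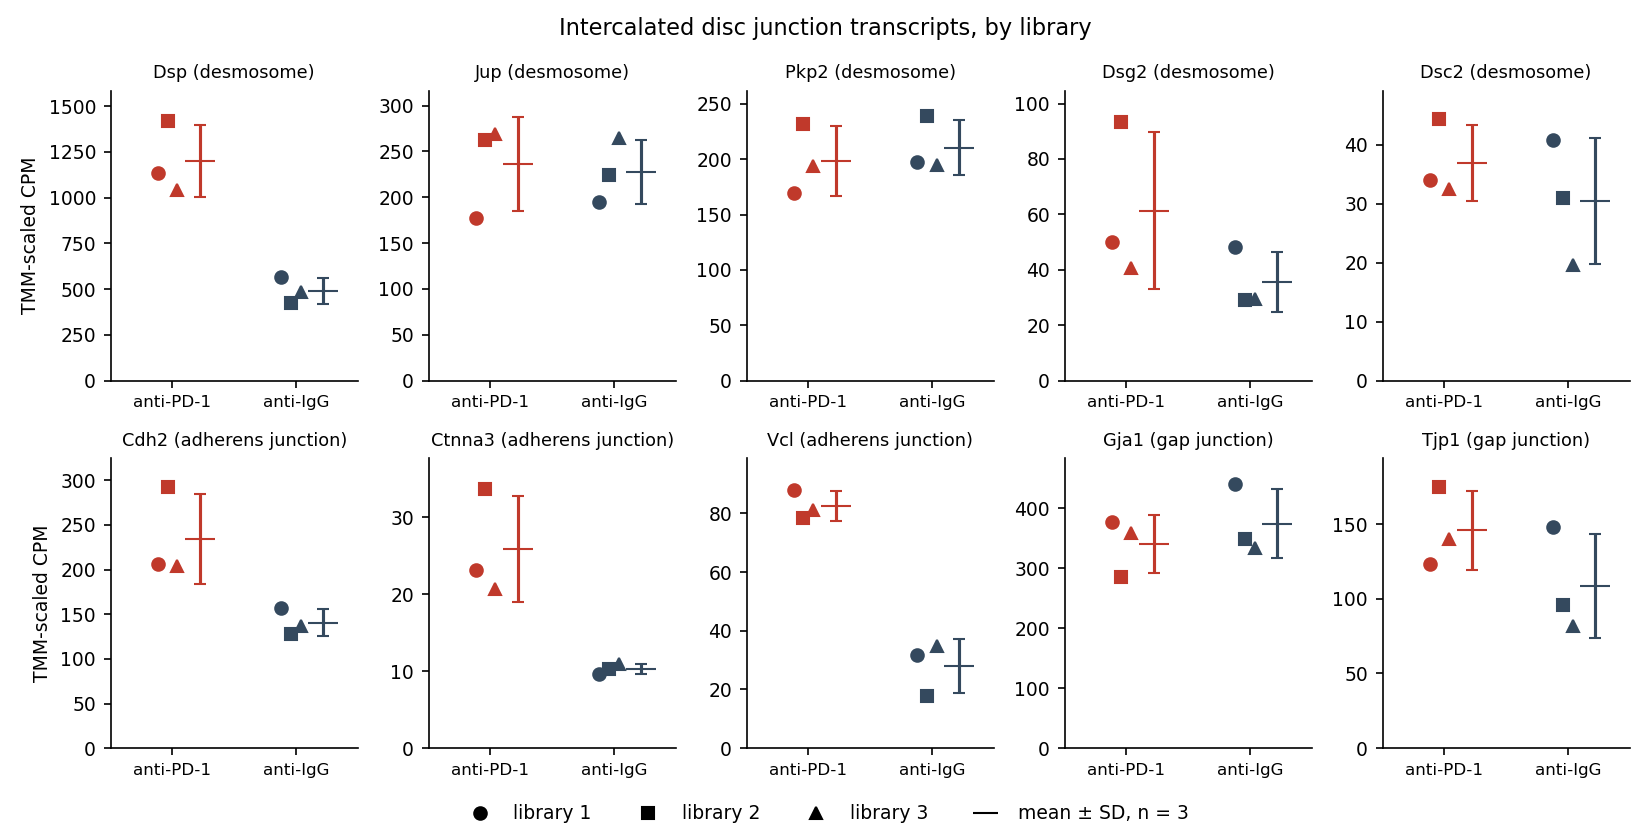
TMM-scaled CPM of the 10 junction members in each library, anti-PD-1 on the left and anti-IgG on the right of each panel, with marker shapes for libraries 1 to 3 and bars for the mean ± SD (n = 3). Dsp, Cdh2, Ctnna3 and Vcl show no overlap between the groups, and the other 6 members overlap.

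Counted together, 4 of the 10 members rose, 0 fell and 6 did not pass, where 10.3% of the 14807 tested genes rose, 10.8% fell and 21.1% passed either way (edgeR, adjusted p under 0.05). The 4 that rose were also the members without overlap between the groups, a pattern that 41.0% of all tested genes had. The members' median log2 fold change was 0.58, against -0.03 over all tested genes. Within the anti-PD-1 group library 2 had the highest value of 7 of the 10 members. In the anti-IgG group library 1 was the highest for 6. Summed over the 10 members, the level was 2386, 2917 and 2384 CPM in the anti-PD-1 libraries, against 1833, 1546 and 1593 CPM in the anti-IgG libraries. These sums are led by Dsp.

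The members are long by the authors' gene length, and log2 fold changes rose with that length across the whole table. Their longest GENCODE transcripts with a coding sequence and 3′ UTR were shorter. They ran from 2918 bp for Pkp2, 3182 bp for Gja1 and 3205 bp for Jup to 9592 bp for Dsp. For Dsp, Dsg2 and Vcl the authors' gene length equals the summed exon length in bp. For Ctnna1, which is not a member, it does not, at 3698 bp against 6425 bp of exons. Over the members the authors' gene length ran from 5277 bp for Dsc2 to 10257 bp for Gja1. Of the 4182 tested genes within this range 17.6% rose, 3.42% fell and the median was 0.24 on the log2 scale, and 42.2% had no overlap between groups. With the tested genes cut into 10 bins of equal number by length, the upper quartile of the log2 fold change was 0.55 for genes of 5922 to 7268 bp, 0.64 for genes of 7273 to 9592 bp and 0.74 for those longer. Vcl, Ctnna3, Dsp, Cdh2 and Dsg2 lay above the upper quartile of their bin. Gja1, the longest member by the authors' gene length, lay below the lower quartile of its bin (0.12). Jup, Pkp2, Dsc2 and Tjp1 lay between the quartiles of theirs. Once every library had been corrected for coding and 3′ UTR length, Vcl (1.09, edgeR adjusted p = 0.0283), Ctnna3 (1.22, edgeR adjusted p = 0.0138) and Dsp (0.90, edgeR adjusted p = 0.0364) still passed, while 2.92% of all tested genes rose and 2.70% fell. Cdh2 did not pass there (0.49, edgeR adjusted p = 0.158) or with the trend on gene length removed (0.46, edgeR adjusted p = 0.153), where 5.17% of tested genes rose, 5.13% fell and the same 3 members passed. After the coding and 3′ UTR correction Dsg2 was at 0.29, Dsc2 at -0.05 and Tjp1 at -0.06. Gja1, with a coding sequence of 1146 bp, was then at -0.22 (95% interval -0.66 to 0.22, edgeR adjusted p = 0.533). With the gene length trend removed Gja1 was at -0.49 (edgeR adjusted p = 0.120). Its value thus depended on the length used, and it passed with neither correction. The length trend separates the groups, its origin was not tested, and a change of long transcripts in the tissue and one in the libraries cannot be told apart.

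**Figure D2:**
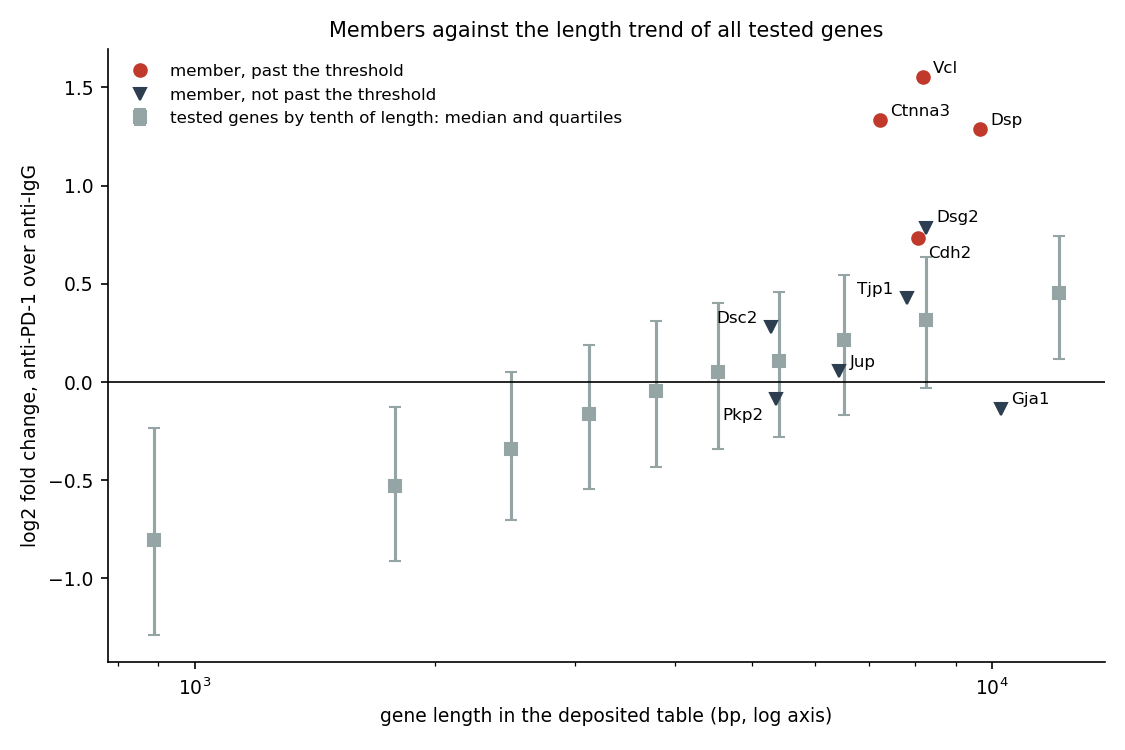
Log2 fold change (anti-PD-1 over anti-IgG) against the authors' gene length in bp on a log axis. Grey squares are the medians of all tested genes in 10 bins of length with bars for the quartiles; Vcl, Ctnna3, Dsp, Cdh2 and Dsg2 stand above the bars of genes of their length, and Gja1 stands below.

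**Figure D3:**
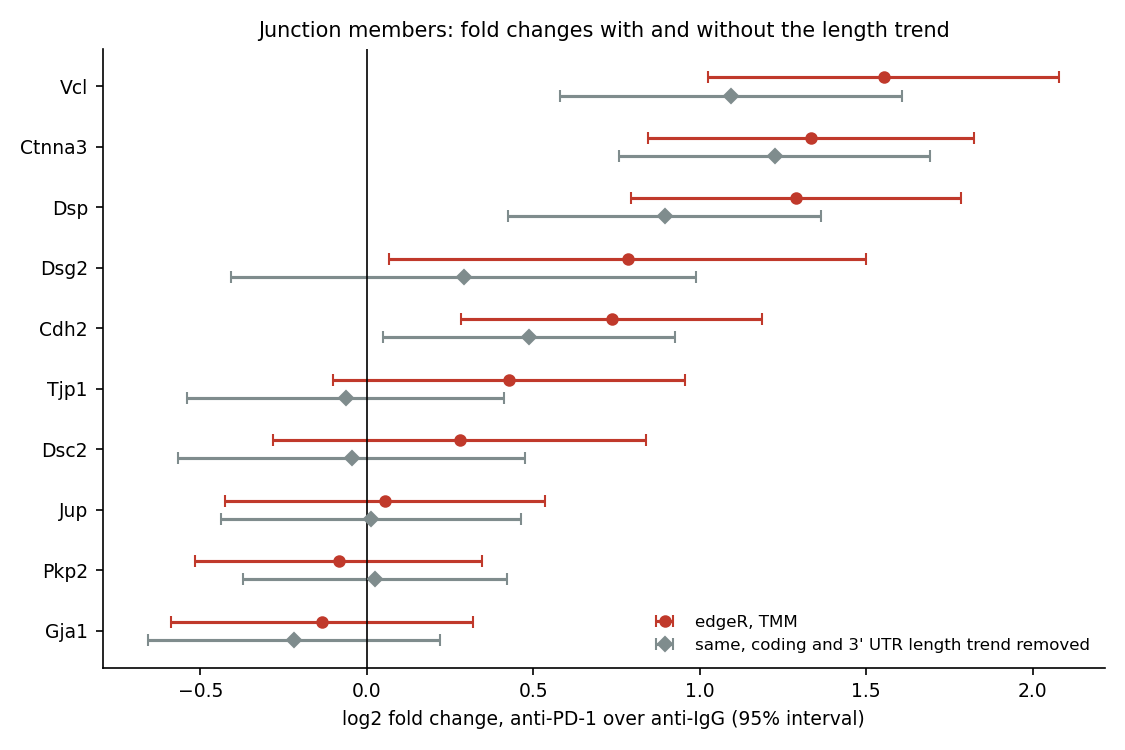
Log2 fold change (anti-PD-1 over anti-IgG) of the 10 members with 95% intervals, from edgeR with TMM scaling (circles) and from the same test after removal of the coding and 3′ UTR length trend (diamonds). The diamonds of Vcl, Ctnna3 and Dsp are at 1.09, 1.22 and 0.90, with intervals above 0.

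Levels between genes were compared per kb of the authors' gene length. With anti-PD-1, Dsp was the most abundant member at 124 ± 20.2 CPM per kb (SD, n = 3), and its lowest library stood above the highest of every other member. Pkp2 (37.0 ± 5.88 CPM per kb), Jup (36.8 ± 7.93), Gja1 (33.2 ± 4.70) and Cdh2 (29.0 ± 6.27) followed, each overlapping the next. Tjp1 stood apart below them at 18.7 ± 3.38 CPM per kb. Vcl (10.1 ± 0.609), Dsg2 (7.42 ± 3.42) and Dsc2 (6.999 ± 1.22) again overlapped in sequence, and Ctnna3 was the lowest at 3.58 ± 0.958 CPM per kb.

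With anti-IgG the order was the same at its ends and differed within. Dsp had 50.8 ± 7.36 CPM per kb there and overlapped Pkp2 (39.3 ± 4.63), which overlapped Gja1 (36.5 ± 5.64), and that gene Jup (35.4 ± 5.44). Cdh2 (17.4 ± 1.87) stood below these and overlapped Tjp1 (13.9 ± 4.45). Dsc2 (5.77 ± 2.02), Dsg2 (4.31 ± 1.31) and Vcl (3.43 ± 1.12) overlapped in sequence, and Ctnna3 had 1.42 ± 0.0926 CPM per kb. Vcl was thus ranked 7 of 10 under anti-PD-1 and 9 of 10 under anti-IgG. Over all 6 libraries, 97.5% of tested genes had a lower level per kb than Dsp, 94.3% than Pkp2, 94.0% than Jup and 42.9% than Ctnna3.

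The length used matters most for Gja1, whose longest GENCODE transcript with a coding sequence and 3′ UTR has 3182 bp. Per kb of that transcript Gja1 was at 107 ± 15.2 CPM under anti-PD-1, against 118 ± 18.2 CPM under anti-IgG. On this scale Dsp had 125 ± 20.4 CPM per kb under anti-PD-1, overlapping Gja1, and 51.2 ± 7.41 CPM per kb under anti-IgG, below Gja1, Pkp2 and Jup.

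Ratios of 2 transcripts within a library do not depend on how libraries are scaled to each other. They were formed after the values had been seen and are given as a description, on reads per kb of gene length. Dsp stood to its armadillo partner Pkp2 as 3.72, 3.39 and 2.99 in the anti-PD-1 libraries, against 1.58, 0.980 and 1.39 in the anti-IgG libraries. The ratio of Dsp to Jup was 4.26, 3.60 and 2.58 under anti-PD-1, against 1.93, 1.26 and 1.22 under anti-IgG. In both ratios the groups stayed apart, so reads of desmoplakin and of its armadillo partners were in different proportion in the groups. These ratios keep the length trend between the groups, and the longest transcripts have 9592 bp for Dsp, 2918 bp for Pkp2 and 3205 bp for Jup. With the coding and 3′ UTR length trend removed, the log2 fold changes were 0.90 for Dsp, 0.02 for Pkp2 and 0.01 for Jup.

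Ctnna1 encodes alpha-E-catenin, the more widely expressed alpha-catenin and the other one in the adherens junction of cardiomyocytes. The ratio of Ctnna3 to Ctnna1 was 0.0392, 0.0440 and 0.0312 under anti-PD-1, against 0.0165, 0.0164 and 0.0156 under anti-IgG. The anti-IgG libraries hardly differed, and every anti-PD-1 library was above them. The gene lengths used were 7227 bp for Ctnna3 and 3698 bp for Ctnna1, against longest transcripts of 3682 and 3733 bp. The summed exons of Ctnna1 have 6425 bp, so its gene length is not of that kind. The height of this ratio depends on the length by which the reads are divided, while its fold between the groups does not. Removing a length trend does move that fold. The log2 fold changes of Ctnna3 and Ctnna1 were 1.33 and 0.08 in the main test. They were 1.10 and 0.15 with the gene length trend removed, and 1.22 and -0.05 with the coding and 3′ UTR length trend removed. The ratio of Vcl to Gja1 was 0.292, 0.342 and 0.283 under anti-PD-1, against 0.0905, 0.0632 and 0.1305 under anti-IgG, again apart. This ratio too keeps the length trend, with longest transcripts of 5267 bp for Vcl and 3182 bp for Gja1. With the coding and 3′ UTR length trend removed, the log2 fold changes were 1.09 for Vcl and -0.22 for Gja1. The 2 desmosomal cadherins kept an overlapping ratio of Dsg2 to Dsc2, 0.934, 1.35 and 0.799 under anti-PD-1, against 0.753, 0.598 and 0.969 under anti-IgG. The ratio of Cdh2 to Jup also overlapped, at 0.925, 0.890 and 0.604 under anti-PD-1, against 0.644, 0.455 and 0.413 under anti-IgG. That of Ctnna3 to Cdh2 did not, at 0.126, 0.129 and 0.113 under anti-PD-1, against 0.0680, 0.0894 and 0.0890 under anti-IgG.

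**Figure D4:**
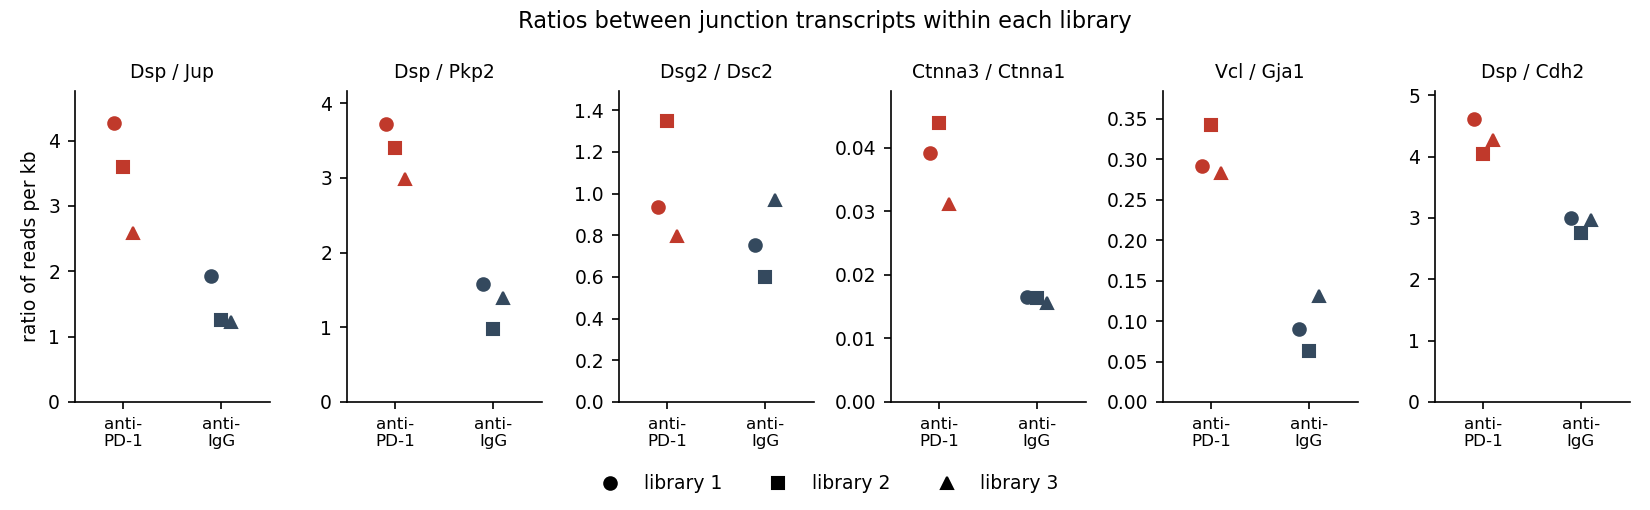
Ratios of reads per kb of gene length between 2 junction transcripts in each library, anti-PD-1 on the left and anti-IgG on the right, with marker shapes for libraries 1 to 3. The groups stay apart for Dsp over Jup, Pkp2 and Cdh2, for Ctnna3 over Ctnna1 and for Vcl over Gja1, and overlap for Dsg2 over Dsc2.

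Of 31 other genes of the intercalated disc, all tested, 7 rose, 1 fell and 23 did not pass, beside 10.3% of all tested genes that rose and 10.8% that fell, and 17.6% that rose among genes in the length range of the 10 members. Their median log2 fold change was 0.33. Their counts moved with the length trend: with the coding and 3′ UTR length trend removed 1 rose and 2 fell (2.92% and 2.70% of all tested genes), and with the gene length trend removed 4 rose and 1 fell (5.17% and 5.13%).

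Of the 12 genes that link vinculin and actin to the junction 4 rose, 0 fell and 8 did not pass, beside 10.3% of all tested genes that rose and 10.8% that fell. Not all of those that rose are reported here. Xirp2, an actin-binding Xin-repeat protein of the disc, had 3374, 2552 and 5255 CPM under anti-PD-1, against 911, 1272 and 1378 CPM under anti-IgG (log2 fold change 1.65 with an SE of 0.31, edgeR adjusted p = 0.00811). Tln2, the talin of striated muscle, which joins integrins to vinculin, rose by 1.01 on the log2 scale (SE 0.21, edgeR adjusted p = 0.0107), and Sorbs2, an SH3 adaptor that binds vinculin, by 0.76 (SE 0.19, edgeR adjusted p = 0.0222). Tln2 did not pass without anti-IgG library 2 (edgeR adjusted p = 0.0620), nor Sorbs2 without anti-PD-1 library 1 or 3 or anti-IgG library 2 or 3 (edgeR adjusted p up to 0.0964). With the transcript length trend removed these 3 did not pass: Xirp2 was at 0.86, Tln2 at 0.04 and Sorbs2 at 0.27 (edgeR adjusted p = 0.132, 0.935 and 0.413). With the gene length trend removed Xirp2 passed at 1.22 (edgeR adjusted p = 0.0369). Tln2 at 0.50 and Sorbs2 at 0.21 did not pass there (edgeR adjusted p = 0.139 and 0.542).

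Of the 10 other desmosome and adherens junction genes 0 rose, 1 fell and 9 did not pass, so the share that fell was near the 10.8% of all tested genes. Ctnnd1, encoding p120-catenin, which holds classical cadherins at the membrane, had 17.1, 13.3 and 16.9 CPM under anti-PD-1, against 21.8, 28.5 and 23.9 CPM under anti-IgG, without overlap. It fell by 0.65 on the log2 scale (SE 0.20, edgeR adjusted p = 0.0380), and by 1.20 after the transcript length correction (edgeR adjusted p = 0.0130). Ctnnd1 shares 4482 of its 7319 exon bp with Gm28635 on the same strand, a gene at 0 reads in all 6 libraries, so its CPM and its length correction may rest on part of its exons and are uncertain. The call for Ctnnd1 ended on leaving out any 1 library other than anti-IgG library 1 (edgeR adjusted p 0.0798 to 0.163). Of the 6 gap junction genes and partners 1 rose: Cxadr, the coxsackievirus and adenovirus receptor, a cell adhesion molecule that binds ZO-1, at 0.88 (SE 0.24, edgeR adjusted p = 0.0279; 0.54 and 0.135 with the transcript length trend removed). It did not pass without anti-PD-1 library 1 or 3 or anti-IgG library 2 or 3 (edgeR adjusted p up to 0.126).

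Among the disc-anchored filament and channel genes, Ank3, encoding ankyrin-G, an adaptor that holds membrane proteins to the spectrin skeleton, rose by 0.99 (SE 0.23, edgeR adjusted p = 0.0153) and did not pass without anti-IgG library 2 (edgeR adjusted p = 0.0627). With the transcript length trend removed Ank3 was at 0.15 (edgeR adjusted p = 0.733). Des, encoding the desmin filament to which desmoplakin binds, had a log2 fold change of -0.22 (edgeR adjusted p = 0.575).

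**Figure D5:**
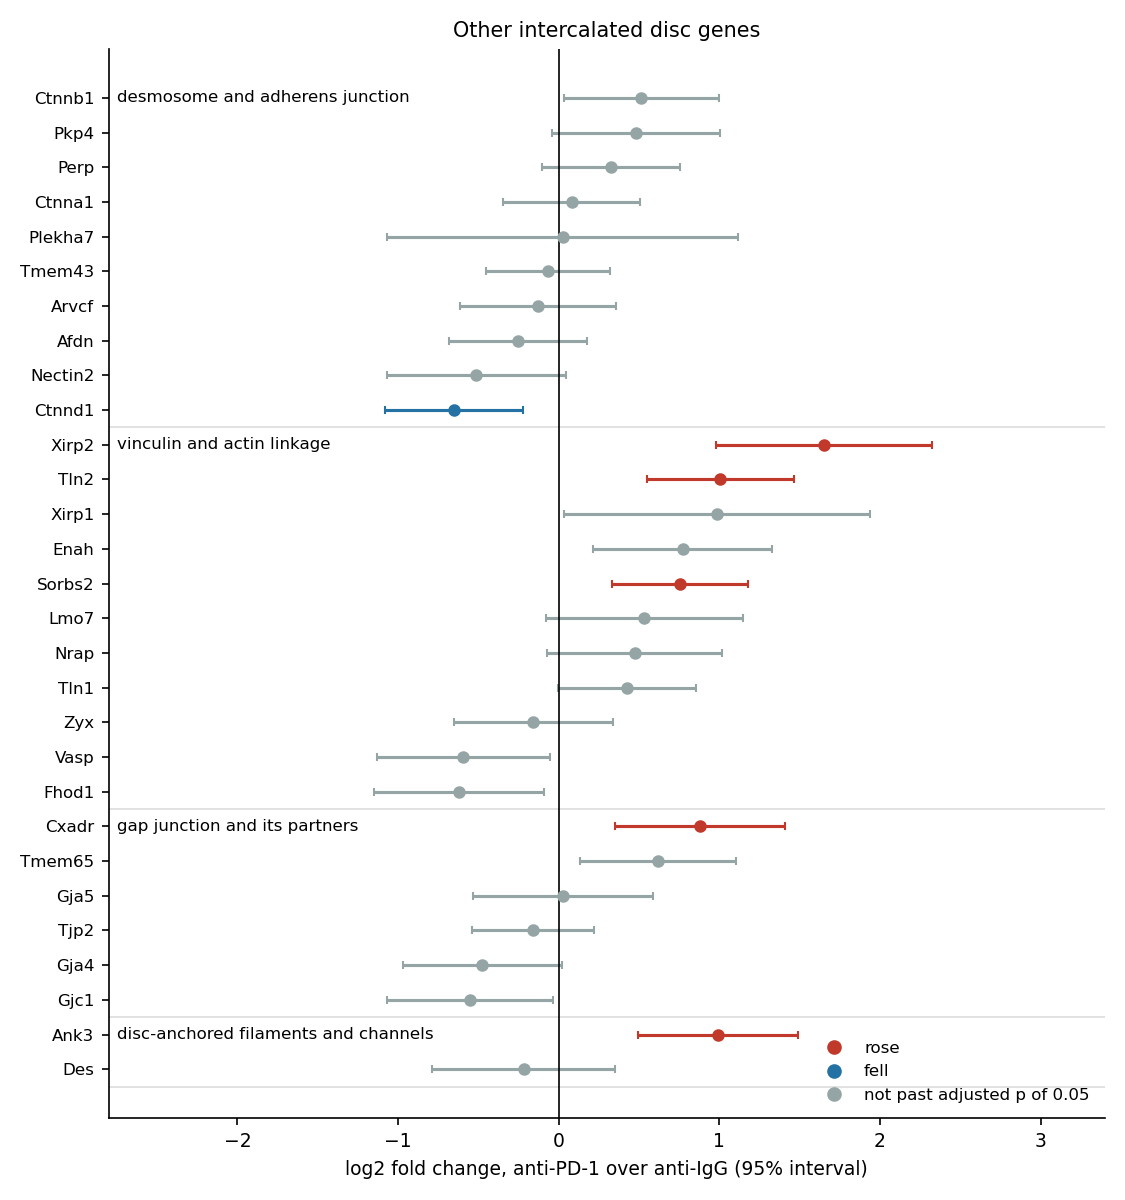
Log2 fold change (anti-PD-1 over anti-IgG) of 29 of the other intercalated disc genes with 95% intervals, in 4 groups by role; red marks genes that rose, blue the gene that fell, and grey those not past an adjusted p of 0.05. Xirp2 stands highest of those drawn at 1.65, and Ctnnd1 is the one gene that fell.

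Summed counts per library were 18063344 to 21093163, and transcripts of the mitochondrial genome took 28.9 to 35.6% of them under anti-PD-1, against 29.9 to 39.3% under anti-IgG. In bulk ventricle RNA, fewer cells of a type and less RNA per cell cannot be told apart. The marker counts here and in the next paragraph stand beside 10.3% of all tested genes that rose and 10.8% that fell. Of 9 cardiomyocyte markers 1 rose, 3 fell and 5 did not pass. Their summed level was 19780 to 35290 CPM under anti-PD-1, highest in library 2, against 31610 to 42260 CPM under anti-IgG. On the log2 scale Ryr2 rose by 1.39 (edgeR adjusted p = 0.00644). Myl2 was at -1.87, Tnni3 at -1.35 and Tnnt2 at -1.22 (edgeR adjusted p = 0.0138, 0.0155 and 0.0225), while Myh6 was at 0.04 and Actc1 at -0.19 (edgeR adjusted p = 0.948 and 0.617). With the transcript length trend removed none of these 6 passed (edgeR adjusted p of at least 0.0740). Actn2, Pln and Mb, the other listed cardiomyocyte markers, did not pass the main test. Of 8 endothelial markers 0 rose and 2 fell, with a summed level of 1288 to 1591 CPM under anti-PD-1, against 1599 to 1685 CPM under anti-IgG. None of 7 fibroblast markers passed (1660 to 2805 CPM under anti-PD-1, against 1469 to 2246 CPM under anti-IgG), and of 7 mural markers 0 rose and 1 fell (1985 to 2355 CPM under anti-PD-1, against 1825 to 2119 CPM under anti-IgG). The part of these cell types in the values of the members was not tested.

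Desmosomes also occur in epithelia, which a dissection can include. Of the epithelial desmosome genes, Dsg3, Dsc1 and Dsc3 were at 0 reads in all 6 libraries, and the 8 genes together summed to 1.97 to 7.56 CPM under anti-PD-1, against 2.25 to 5.23 CPM under anti-IgG. The most counted were Ppl (40, 117 and 18 reads under anti-PD-1, against 57, 49 and 24 under anti-IgG) and Evpl (9, 16 and 13 reads under anti-PD-1, against 33, 14 and 13 under anti-IgG), which encode periplakin and envoplakin and did not pass (edgeR adjusted p = 0.684 and 0.375). The 6 epithelial markers summed to 1.5 to 2.59 CPM under anti-PD-1, against 1.28 to 3.11 CPM under anti-IgG. Of the atrial markers, Sln was at 0 reads in all 6 libraries and Myl7 had 2 reads in 1 anti-PD-1 library and 2 in 1 anti-IgG library. Myl4, the one atrial marker tested, had 9, 16 and 17 reads under anti-PD-1, against 16, 39 and 44 under anti-IgG (log2 fold change -1.29, edgeR adjusted p = 0.0949). The 6 macrophage markers (1 rose, 1 fell) summed to 275 to 299 CPM under anti-PD-1, against 258 to 492 CPM under anti-IgG. None of the tested mesothelial (1 of 5 listed) or Schwann and neural markers (3 of 4 listed) passed.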

How the data were processed

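The 6 mRNA-seq libraries of left ventricle were grouped by their labels. The authors deposited raw read counts per gene and FPKM values. The submitters' processing notes name featureCounts and mm10 with no version. Aligner and strand setting: not given in the sources used here. Per the labels, the library kit was a NEBNext Ultra kit. The FPKM values deposited by the authors were used only as an alternative. The main test on the counts was edgeR 4.0.16 under R 4.3.3 (filterByExpr, TMM, quasi-likelihood F test with robust=TRUE, 2-sided, Benjamini-Hochberg adjustment over all 14807 tested genes, threshold 0.05). An SE is the log2 fold change divided by the root of its F statistic. DESeq2 1.42.0 and limma 3.58.1 served as alternatives. The length trends were natural splines of 5 degrees of freedom on log2 length, fitted in each library to deviations of log2 CPM (prior count 2) from the gene's mean over the 6 libraries and entered as offsets; 88.4% of the tested genes had both coding and 3′ UTR lengths in GENCODE M21. The correction for coding and 3′ UTR length and the levels per kb of transcript were chosen after seeing the data.

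The members and lists were chosen with earlier results of these data known. Named beside the members are the other disc genes past the threshold, up to 4 of a role by smallest p, except some that are not reported here, and the 2 most counted epithelial desmosome genes and the 3 genes most like the members in profile; Ctnna1, Des, Ap3m1 and single cell type markers were added after their values were seen. Libraries of a group differed by more than sampling noise, with chi-square statistics per degree of freedom of 46.0 to 73.5.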

Additional observations from a re-analysis of the deposited data

How the results depend on the processing

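Of the members, Dsp, Ctnna3 and Vcl kept their call in all 19 alternatives, with log2 fold changes of 0.90 to 1.40, 0.90 to 1.48 and 1.09 to 1.74 and adjusted p of at most 0.0432, 0.0414 and 0.0283. Cdh2 kept its call in 12 of the 19 and lost it in 7, which include the stricter threshold of 0.01 on the main test. Dsg2 passed without the count filter (0.79, edgeR adjusted p = 0.00254) and by DESeq2 (0.80, adjusted p = 0.0469). The count of members past the threshold was 3 to 6 when 1 library was left out, 3 with either length trend removed and 4 or 5 under the other settings at 0.05. The count over all genes was 532 to 3646, and that of the 31 other disc genes 3 to 12, when 1 library was left out (fewest without anti-IgG library 2). With the gene length trend removed these counts were 1526 and 5, with the transcript length trend removed 833 and 3, and at an adjusted p under 0.01 they were 572 and 3, against 3118 and 8. Upper quartile scaling put the median of all genes at -0.12, with 1178 genes higher and 2022 lower.

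Signs near 0 turned as follows. Jup was at -0.039 with upper quartile scaling, -0.12 with the gene length trend removed, and below 0 without anti-PD-1 library 2 or 3 or anti-IgG library 1 (range over all libraries left out -0.044 to 0.23). Pkp2 was at 0.023 with the transcript length trend removed and at 0.025 without anti-PD-1 library 1 (range -0.19 to 0.025). Dsc2 and Tjp1 were at -0.046 and -0.063 with the transcript length trend removed. Gja1 was at 1.8e-05 without anti-IgG library 1 (range -0.21 to 1.8e-05). The causes were not tested.

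Whether the replicate numbers pair the samples could not be decided from 3 libraries in each group. Deviations of same-numbered libraries correlated across genes at 0.124, -0.143 and 0.214. Anti-PD-1 libraries 1 and 3 and anti-IgG library 3 correlated best with their own number, and the remaining libraries did not. With the replicate block 3367 genes, 4 members and 11 other disc genes passed. Low-count genes limit the depth: Ctnna3 rests on 183 to 629 reads per library.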

Other observations

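The 3 tested genes with an informative symbol outside these lists whose log2 CPM over the 6 libraries was most like the mean standardised profile of the 10 members were Klf9 (Pearson's r 0.998), Capn7 (0.995) and Ccdc47 (0.995). Their likeness is given as a description: the points share libraries and scaling, and the difference between groups is part of it. Klf9, a Krüppel-like transcription factor, rose by 1.00 on the log2 scale (edgeR adjusted p = 0.0330), while Capn7, a calpain protease, was at 0.43 (edgeR adjusted p = 0.105) and Ccdc47, a protein of the endoplasmic reticulum membrane, at 0.28 (edgeR adjusted p = 0.265).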
